A study of Mus musculus with 10 samples.

Results

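The cyclin-dependent kinase inhibitors were followed in fibroblasts cultured from mouse embryos, on 10 Affymetrix arrays. They comprised 4 genes of the INK4 family (Cdkn2a, Cdkn2b, Cdkn2c and Cdkn2d) and 2 genes of the CIP/KIP family (Cdkn1a and Cdkn1b). Every probe set annotated to 1 of these genes alone was taken, whatever its values. That gave 8 of the 45037 probe sets that were not controls, and 6 of the 18193 genes with a symbol. The values are log2 GCRMA signals, and 4 was taken as the level under which a signal was read as background. A total of 7 probe sets reached a group mean of 4 and were tested, while 1 of the 2 probe sets for Cdkn1b stayed under 4 in every array.

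The cells carried a conditional Dicer knockout gene (CDKO, 6 arrays) or were named wild type (WT, 4 arrays). Dicer cuts microRNA precursors into mature microRNAs. CDKO cells were left untreated or were given 4-hydroxytamoxifen (OHT, in the labels 4-Orthohydroxy Tamoxifen) at 1 µM or at 5 µM, and WT cells were left untreated or were given 5 µM. Treatment lasted 4 days, all cells were grown in DMEM with 10% serum, and there were 5 groups of 2 arrays. OHT binds the estrogen receptor and is widely used to activate a Cre recombinase that carries the receptor's ligand-binding domain. The labels name neither a Cre nor its promoter, nor the passage or the number of embryos behind a line, and 1 label field calls all 10 samples conditional knockout while the titles name 4 of them WT. They also do not say whether the replicates were separate cultures, so the p-values may measure technical spread alone.

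The INK4 proteins bind Cdk4 and Cdk6 and block their pairing with D-type cyclins, which keeps the retinoblastoma protein in its growth-restraining form. Cdkn2a also encodes ARF, known as p19 in the mouse, from a separate first exon, and ARF holds back Mdm2 and so stabilises p53. The CIP/KIP proteins p21 (Cdkn1a) and p27 (Cdkn1b) bind complexes with Cdk2, and p21 is a classical p53 target. In mouse embryonic fibroblasts p16, ARF and p21 are known to build up as cultures are passaged and stop dividing.

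Cdkn2a was read by a single probe set although RefSeq lists a pair of transcript starts for it, and the position of its probes was not analysed here, so its signal is not assigned to p16 or ARF transcripts here. The 250 bases before each of these starts are shown (RefSeq, build GRCm38.p6, 5′ to 3′ on the gene's strand). Those before the upstream start of Cdkn1a are also shown, which unlike its other start held p53 half-site matches. Cdkn2a, Cdkn1a and also Cdkn2b were called between the untreated lines below, and the Cdkn2b window is given by its counts alone. Capitals mark GC boxes (GGGCGG on either strand) in the Cdkn2a windows and matches to the p53 half-site in the Cdkn1a window.
Cdkn2a, p16 start, chr4:89282193-89282442, minus strand: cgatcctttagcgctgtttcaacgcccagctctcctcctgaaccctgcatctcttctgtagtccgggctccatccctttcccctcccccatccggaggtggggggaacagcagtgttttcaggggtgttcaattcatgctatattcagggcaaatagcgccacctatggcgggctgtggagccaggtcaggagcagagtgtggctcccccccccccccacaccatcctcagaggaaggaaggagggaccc
Cdkn2a, ARF start, chr4:89294620-89294869, minus strand: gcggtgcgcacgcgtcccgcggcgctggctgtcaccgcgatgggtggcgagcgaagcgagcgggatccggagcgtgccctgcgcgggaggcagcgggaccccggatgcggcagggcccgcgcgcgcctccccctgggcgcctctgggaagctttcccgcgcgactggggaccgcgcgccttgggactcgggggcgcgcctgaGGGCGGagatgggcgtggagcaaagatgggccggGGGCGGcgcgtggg
Cdkn1a, upstream start, chr17:29090729-29090978, plus strand: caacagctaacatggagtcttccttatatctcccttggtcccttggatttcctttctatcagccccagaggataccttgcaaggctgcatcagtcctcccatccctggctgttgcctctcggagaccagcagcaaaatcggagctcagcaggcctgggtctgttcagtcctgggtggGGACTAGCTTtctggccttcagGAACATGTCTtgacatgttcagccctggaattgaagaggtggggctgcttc
The ARF window held 40 CpG and 2 GC boxes, and 98.9% of 32841 windows of the same length over all genes had no more CpG. The p16 window held 7 CpG and 0 GC boxes, close to the median of 6 CpG over all windows. A GC box was found in 32.7% of all windows and a p53 half-site in 7.13%. The Cdkn1a window held 2 half-sites, GGACTAGCTT and GAACATGTCT, which began 73 and 51 bases before the start. Among the other windows, that of Cdkn2b held 12 CpG and 0 GC boxes, that of Cdkn2d 16 CpG and 3 GC boxes, and that of Cdkn1b 28 CpG and 1 GC box. The Cdkn2d window also held 1 p53 half-site match, GGGCTTGCCT, 102 bases before the start. The windows of the listed Cdkn2c starts held 6 and 29 CpG with 0 and 3 GC boxes, and that of the other Cdkn1a start 19 CpG with 2 GC boxes. No half-site match was found in those 3 windows, nor in those of Cdkn2a, Cdkn2b and Cdkn1b. Each match is a description of the letters and was not set against binding data.

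Before the members were compared, the arrays were checked against their labels. Dicer1 had 2 probe sets, and whether either lies in the deleted part is not stated in the labels. One of them (1460571_at) read 6.33 and 5.93 in untreated CDKO, 6.10 and 6.55 at 1 µM, 5.90 and 5.49 at 5 µM, 7.31 and 7.16 in untreated WT, and 5.90 and 5.94 in treated WT. The other (1427941_at) read 7.09 and 5.99 in untreated CDKO, 5.40 and 8.30 at 1 µM, 5.83 and 5.78 at 5 µM, 8.97 and 9.10 in untreated WT, and 7.64 and 7.19 in treated WT. On both, the 5 µM arrays lay under the untreated CDKO arrays, and on 1460571_at also under those at 1 µM. The differences of 5 µM from untreated CDKO, -0.44 ± 0.26 and -0.73 ± 0.83, did not pass (adjusted p = 0.746 and 0.929), and they do not show whether the gene was deleted. On 1460571_at the fall with OHT in WT cells was called in limma (-1.32 ± 0.26, adjusted p = 0.0266). Its lower level in untreated CDKO than in untreated WT was also called (-1.11 ± 0.26, adjusted p = 0.0481). The same differences on 1427941_at, -1.62 ± 0.83 and -2.50 ± 0.83, did not pass (adjusted p = 0.233 and 0.122). Fibroblast markers were present throughout, with 13 or 14 of 14 at 4 or above in each group. The summed log2 level of 15 macrophage and leukocyte markers ran from 90.0 to 126 over the CDKO arrays and from 127 to 131 over the WT arrays, with Itgam under 4 in every group. The untreated WT arrays stood apart, with an 18S ribosomal RNA control of 11.6 and 11.2 against 5.21 to 10.2 elsewhere, and with 6 of 7 skeletal muscle and 4 of 5 epithelial markers at 4 or above against 2 of each in every other group. The 3′ minus 5′ difference of the Gapdh control, a sign of RNA quality, was 0.89 and 0.67 there and 1.58 in CDKO 1 µM replicate 2, against -0.31 to 0.069 in the other arrays. The hybridisation spike-ins read lower in CDKO 5 µM replicate 2, in both 1 µM arrays and in CDKO untreated replicate 2 than in the rest, which gave a lower and a higher class. All WT arrays were in the higher class. The median SD between replicates was 0.29 to 0.34 in the CDKO groups and 0.07 to 0.10 in the WT groups, and the fit used 1 pooled spread for all.

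Cdkn2a was higher in CDKO than in WT cells, untreated and at 5 µM, and rose with OHT in WT cells. Its signal read 9.07 and 8.34 in untreated CDKO, 9.13 and 8.48 at 1 µM, and 10.7 and 9.38 at 5 µM. In WT cells it read 3.45 and 3.78 untreated and 6.74 and 6.87 with 5 µM. All 6 CDKO arrays lay above all 4 WT arrays, and untreated WT was at background. Cdkn2a was higher in CDKO than in WT cells without OHT by 5.09 ± 0.48 (log2, SE, n = 2 and 2; 95% interval 3.98 to 6.21, adjusted p = 0.00247 in limma). Since the WT mean of 3.62 ± 0.24 (SD) was under 4, this is a distance from background and gives no fold change in transcript. At 5 µM, where both groups were above background, Cdkn2a was 9.52-fold higher in CDKO than in WT (3.25 ± 0.48, 95% interval 2.14 to 4.37, adjusted p = 0.0243). Within the higher spike-in class, with 1 CDKO array against the 2 WT arrays, these differences were 5.46 and 3.93.

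With OHT in WT cells Cdkn2a rose by 3.19 ± 0.48 (95% interval 2.07 to 4.30, adjusted p = 0.0131), again from a background level. In CDKO cells the step from untreated to 5 µM was 1.35 ± 0.48 (0.23 to 2.46, adjusted p = 0.437) and stayed short of the threshold, although both treated arrays lay above both untreated ones. Its size was 1.66 in the higher spike-in class and 1.03 in the lower class, each between 1 treated and 1 untreated array. From untreated to 1 µM the difference was 0.098 ± 0.48 (-1.02 to 1.21, adjusted p = 0.996), and from 1 µM to 5 µM it was 1.25 ± 0.48 (0.14 to 2.37, adjusted p = 0.351). Without CDKO 5 µM replicate 1 the steps to 5 µM from untreated and from 1 µM were 0.67 and 0.57, and without replicate 2 they were 2.03 and 1.93. The response to 5 µM was smaller in CDKO than in WT cells by -1.84 ± 0.67 (-3.42 to -0.26), which did not pass the test of the difference (adjusted p = 0.340). In order of mean level, CDKO at 5 µM, at 1 µM and untreated were followed by WT at 5 µM and untreated WT, and the neighbouring CDKO groups did not differ beyond the test.

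The calls for Cdkn2a held to different degrees when single arrays were left out. Between the untreated lines it passed under each of 20 alternatives, with differences of 4.73 to 5.61. The call in WT cells was lost without any 1 of the 4 WT arrays, with differences of 3.02 to 3.36 and adjusted p of 0.0806 to 0.117 (1.78e-05 to 0.117 over all alternatives). The call between the lines at 5 µM was lost without CDKO 5 µM replicate 1 (2.57, adjusted p = 0.0595) and without any 1 WT array (3.18 to 3.32, adjusted p = 0.0663 to 0.209, and 0.0108 to 0.209 over all alternatives). Without any 1 WT array the SE of the difference in WT cells rose from 0.48 to between 0.63 and 0.64. Untreated WT arrays do not enter the comparison at 5 µM. Leaving out either of them kept that difference at 3.25, while its SE rose from 0.48 to 0.51. As these are bulk samples, more RNA per cell and more cells that make it cannot be told apart.

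**Figure D1:**
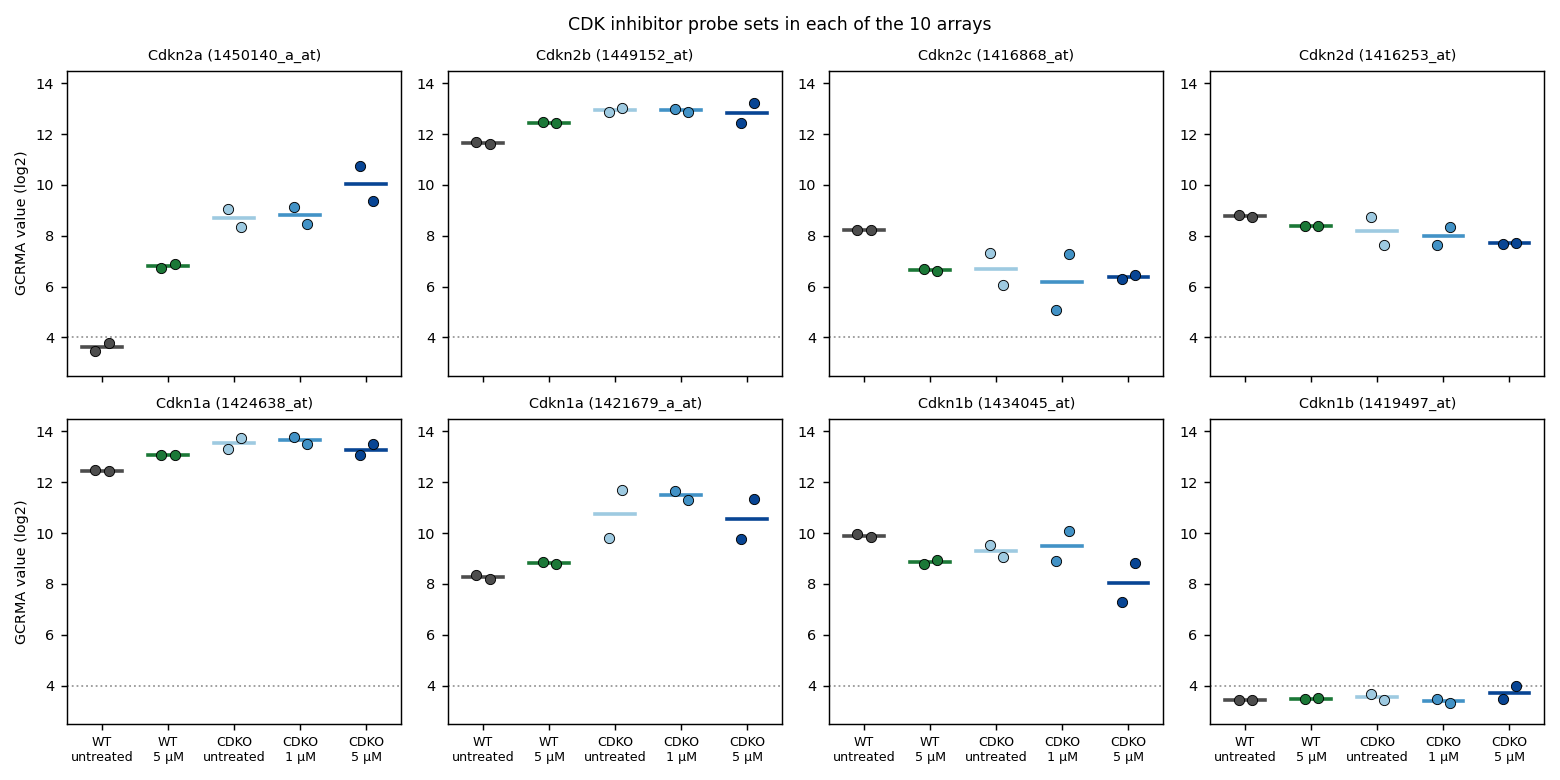
Each panel shows 1 probe set, with the log2 GCRMA value on the vertical axis, 1 point for each array, a bar for the mean of the 2 arrays of a group and a dotted line at 4. The CDKO arrays lie above the WT arrays for Cdkn2a, both Cdkn1b arrays at 5 µM OHT lie under the untreated CDKO arrays on 1434045_at, and the probe set 1419497_at stays under 4; signals of different probe sets are not comparable in level.

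Cdkn2b, which encodes p15 and lies next to Cdkn2a, showed the same order of lines at a much smaller scale of difference. It read 12.9 and 13.0 in untreated CDKO, 13.0 and 12.9 at 1 µM, and 12.4 and 13.2 at 5 µM. In WT cells it read 11.7 and 11.6 untreated and 12.5 and 12.4 at 5 µM. Both untreated WT arrays were the lowest of the 10, and CDKO 5 µM replicate 1 lay among the treated WT arrays. Cdkn2b was 2.46-fold higher in CDKO than in WT cells without OHT (1.30 ± 0.27, SE, n = 2 and 2, adjusted p = 0.0364). It read 0.78 ± 0.27 higher with OHT in WT cells (adjusted p = 0.105) and -0.12 ± 0.27 in CDKO cells at 5 µM (95% interval -0.75 to 0.52, adjusted p = 0.979). At 5 µM the lines differed by 0.40 ± 0.27 (adjusted p = 0.565), and by 0.0014 within the higher spike-in class. The call between the untreated lines was lost without either untreated CDKO array or any 1 WT array, with differences of 1.22 to 1.37 and adjusted p of 0.0746 to 0.208 (0.0146 to 0.208 over all alternatives).

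Cdkn2c, which encodes p18, ran the other way, with its highest signals in untreated WT. It read 7.34 and 6.06 in untreated CDKO, 5.06 and 7.28 at 1 µM, 6.31 and 6.46 at 5 µM, 8.24 and 8.24 in untreated WT, and 6.68 and 6.62 in treated WT. The SD between replicates was 0.91 in untreated CDKO and 1.57 at 1 µM, against 0.039 in treated WT, and the CDKO groups overlapped one another. Cdkn2c passed the test in no comparison with all arrays and the pooled spread. It differed by -1.54 ± 0.69 between the untreated lines (adjusted p = 0.219), by -1.58 ± 0.69 with OHT in WT cells (adjusted p = 0.169) and by -0.32 ± 0.69 in CDKO cells at 5 µM (95% interval -1.93 to 1.30, adjusted p = 0.977). The 1 µM arrays enter neither the first nor the second difference and bear on the pooled spread alone. Without either of these arrays the differences stayed at -1.54 and -1.58, while their SE fell from 0.69 to 0.39 and both moved past the threshold. Over all alternatives the adjusted p in limma ran from 0.0480 to 0.569 for the first and from 4.07e-04 to 0.432 for the second.

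Cdkn2d, which encodes the INK4 protein p19 that is distinct from ARF, covered a narrow range. It read 8.74 and 7.64 in untreated CDKO, 7.62 and 8.35 at 1 µM, 7.68 and 7.72 at 5 µM, 8.83 and 8.74 in untreated WT, and 8.40 and 8.40 in treated WT. Both CDKO arrays at 5 µM lay under all WT arrays, while untreated CDKO replicate 1 lay among the untreated WT arrays. The differences were -0.70 ± 0.39 between the lines at 5 µM (adjusted p = 0.458), -0.59 ± 0.39 between the untreated lines (adjusted p = 0.386), -0.39 ± 0.39 with OHT in WT cells (adjusted p = 0.544) and -0.49 ± 0.39 in CDKO cells at 5 µM (adjusted p = 0.853). None passed the test.

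Cdkn1a, which encodes p21, was also higher in CDKO than in WT cells when both were untreated. On the probe set with the higher signal (1424638_at) it read 13.3 and 13.7 in untreated CDKO, 13.8 and 13.5 at 1 µM, 13.1 and 13.5 at 5 µM, 12.5 and 12.4 in untreated WT, and 13.1 and 13.1 in treated WT. Both untreated WT arrays were the lowest of the 10, and CDKO 5 µM replicate 1 lay just under the treated WT arrays. The difference between the untreated lines was 2.11-fold (1.08 ± 0.24, SE, n = 2 and 2, adjusted p = 0.0440). With OHT it read 0.63 ± 0.24 higher in WT (adjusted p = 0.131) and -0.24 ± 0.24 in CDKO cells (95% interval -0.81 to 0.32, adjusted p = 0.907). At 5 µM the lines differed by 0.20 ± 0.24 (adjusted p = 0.782), and by -0.012 within the higher spike-in class. The call between the untreated lines was lost in 10 of 20 alternatives. It was lost without CDKO untreated replicate 2 or any 1 WT array, with differences of 0.87 to 1.11 and adjusted p of 0.106 to 0.232, and it was narrowly lost with median centring (adjusted p = 0.0546) and with 1 probe set per gene (0.0527). Over all alternatives its adjusted p ran from 0.0230 to 0.232.

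The other Cdkn1a probe set (1421679_a_at) gave wider differences and wider scatter. It read 9.79 and 11.7 in untreated CDKO, 11.7 and 11.3 at 1 µM, 9.76 and 11.4 at 5 µM, 8.34 and 8.19 in untreated WT, and 8.86 and 8.78 in treated WT. All 6 CDKO arrays lay above all 4 WT arrays. Its difference between the untreated lines, 2.48 ± 0.68 (95% interval 0.90 to 4.06), just missed the threshold (adjusted p = 0.0762), and it passed without CDKO untreated replicate 1 (3.44, adjusted p = 0.0322, and 0.0129 to 0.306 over all alternatives). Within the higher spike-in class the difference was 1.53. Thus between the untreated lines both probe sets ran the same way, and 1 of them passed. At 5 µM the lines differed by 1.74 ± 0.68 on 1421679_a_at (95% interval 0.16 to 3.32, adjusted p = 0.272 in limma). Within the higher spike-in class that difference was 0.94.

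Cdkn1b, which encodes p27, had its lowest mean in CDKO cells at 5 µM. On 1434045_at it read 9.52 and 9.05 in untreated CDKO, 8.92 and 10.1 at 1 µM, 7.28 and 8.82 at 5 µM, 9.95 and 9.84 in untreated WT, and 8.78 and 8.96 in treated WT. Both arrays at 5 µM lay under both untreated arrays in each line, and CDKO 5 µM replicate 1 lay far under every other array. The difference at 5 µM was -1.23 ± 0.55 in CDKO cells (95% interval -2.52 to 0.05, adjusted p = 0.586), and with the same dose WT cells gave -1.02 ± 0.55 (adjusted p = 0.250). Against 1 µM the difference in CDKO cells was -1.46 ± 0.55 (-2.74 to -0.18, adjusted p = 0.344). Against untreated CDKO it was -2.24 within the higher spike-in class, which holds that replicate, and -0.23 within the lower one. Each of these values is between 1 treated and 1 untreated array. Without that replicate the 2 differences in CDKO cells were -0.46 and -0.69, and without CDKO 5 µM replicate 2 they were -2.00 and -2.23. Between the lines it differed by -0.61 ± 0.55 untreated (adjusted p = 0.541) and by -0.82 ± 0.55 at 5 µM (adjusted p = 0.556), and no Cdkn1b difference passed. The other probe set, 1419497_at, read 3.30 to 3.97 and gave no level above background.

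CDKO 5 µM replicate 1 was the highest array for Cdkn2a, the lowest for Cdkn1b, and the lowest CDKO array for Cdkn2b and for both Cdkn1a probe sets. The same array had a Col1a1 signal of 11.8 against 13.3 to 15.4 in the other arrays and the highest macrophage and leukocyte median of the CDKO arrays, at 0.72 against -1.66 to 0.068. The part of these in the member values was not tested.

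Between the untreated lines 3 of the 7 member probe sets were called, all higher in CDKO, against 6.58% of all 20681 tested probe sets. The arrays of the lines did not overlap for 6 of the 7, against 61.3% of all. The median difference of the 7 was 1.08 and that of all tested probe sets -0.0035. With 1 probe set for each of the 6 genes it was 0.24, against -0.047 over all genes. Untreated WT enters this comparison and that of OHT in WT cells, so line or drug cannot be told apart from what else sets those 2 arrays apart, such as their 18S and Gapdh controls and their muscle and epithelial transcripts. Cdkn2a read 8.48 in CDKO 1 µM replicate 2, where the 18S control was 10.2 and the Gapdh difference 1.58. It was called between the lines at 5 µM, where the 18S control was 5.51 and 5.83 in CDKO and 6.16 and 5.98 in WT. The Gapdh difference was -0.31 to -0.098 in those arrays. In that comparison the median difference of the macrophage and leukocyte markers was -1.48. Of its arrays CDKO 5 µM replicate 2 alone was in the lower spike-in class. The part of any of these in the Cdkn2a values was not tested.

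**Figure D2:**
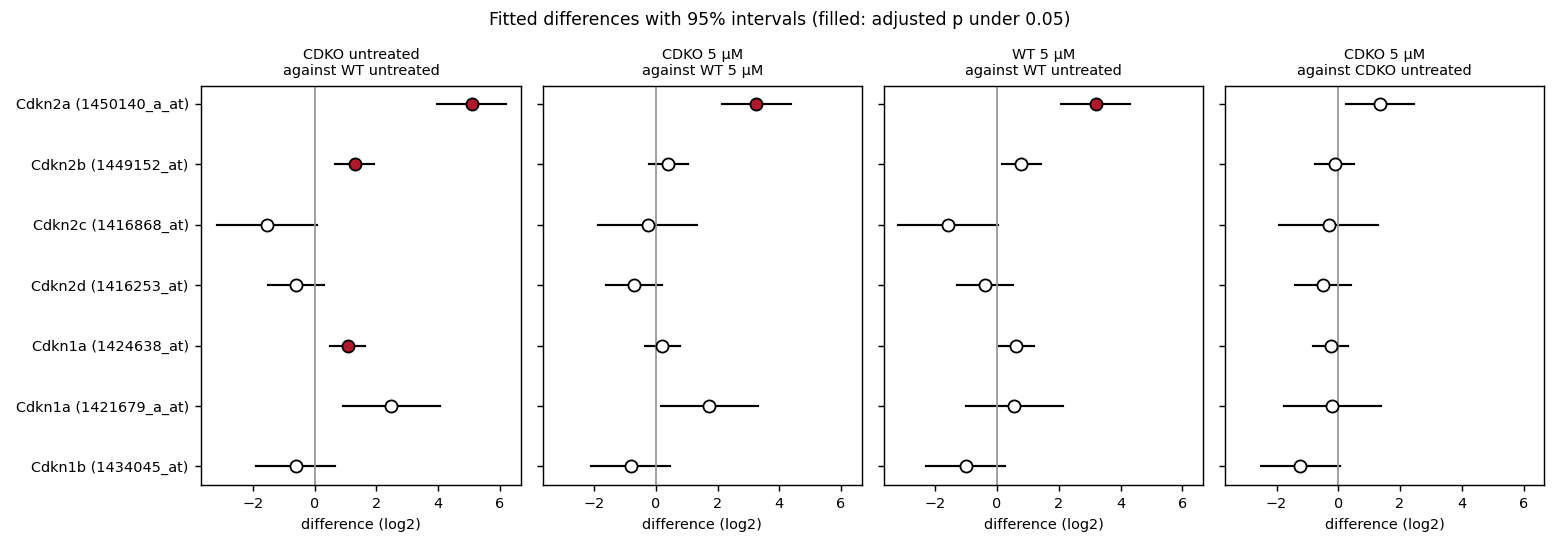
Points are fitted log2 differences of the 7 tested member probe sets in 4 comparisons and lines are 95% intervals, with filled points for an adjusted p under 0.05. Cdkn2a is filled in 3 of the 4 panels, at 5.09, 3.25 and 3.19, Cdkn2b and Cdkn1a are filled between the untreated lines, and no point is filled for CDKO at 5 µM against untreated.

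With OHT in WT cells 1 of 7 was called, Cdkn2a, against 9.23% of all probe sets. The arrays did not overlap for 7 of 7, against 83% of all. The pooled spread was wider than that of the WT arrays themselves. With the 4 WT arrays fitted alone 7 of 7 were called, against a background of 56.5%, with Cdkn2a, Cdkn2b and both Cdkn1a probe sets higher and Cdkn2c, Cdkn2d and Cdkn1b lower (adjusted p = 0.0014 to 0.0213). Between the lines at 5 µM 1 of 7 was called, against 1.8% of all, with a median member difference of 0.20 against 0.043. With 1 probe set per gene the median was -0.032 against 0.044, so its direction turned.

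Within the CDKO line no member was called by limma at either dose. At 5 µM against untreated 0 of 7 were called, against 0.145% of all probe sets, and 1 of 7 had an unadjusted p under 0.05, against 8.89% of all. At 1 µM against untreated 0 of 7 were called, against 0% of all, and 0 of 7 had an unadjusted p under 0.05, against 3.43%. At 5 µM against 1 µM 0 of 7 were called, against 0.169%, and 2 of 7 had an unadjusted p under 0.05, against 12.9%. When the responses of the lines to 5 µM were set against each other 0 of 7 were called, against 0.348%, and 2 of 7 had an unadjusted p under 0.05, against 12.5%. These comparisons share arrays of the untreated or the 5 µM CDKO group.

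The submitters' stated design pools the 3 control groups and compares the treated CDKO arrays with them. In that comparison 1 of 7 was called, Cdkn2a, against 4.08% of all probe sets (3.05 ± 0.31, SE, n = 4 and 6, adjusted p = 0.00505). Without the untreated WT group 0 of 7 were called by limma, and Cdkn2a stood at 1.67 (adjusted p = 0.262, and 0.00444 to 0.262 over all alternatives). The control arrays themselves ran from 3.45 to 9.07 for this gene. The SE comes from the spread within the 5 groups, so neither it nor the p-value takes in that range.

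Transcripts of mitosis genes differed between the arrays, and the members were ordered along them in different ways. The median of 24 mitosis genes, each centred on its mean over the arrays, was 1.58 and 1.61 in untreated WT and -0.46 and -0.47 in treated WT. It was 0.50 and -0.73 in untreated CDKO, -0.72 and 0.81 at 1 µM, and -1.08 and -0.88 at 5 µM. The 4 arrays with the highest mitosis median, both untreated WT arrays, CDKO 1 µM replicate 2 and CDKO untreated replicate 1, were also the top 4 for Cdkn2c and for Cdkn1b on 1434045_at. Cdkn2b and Cdkn1a were lowest in the 2 arrays with the highest mitosis median. Cdkn2a read 9.07 and 8.48 in the 2 CDKO arrays with a high mitosis median, against 8.34 and 9.13 in their replicates with a low one. With OHT in WT cells all 24 mitosis genes read lower (-4.39 to -0.99, median -2.00), and 13 passed, against 9.23% of all probe sets. Between the untreated lines all 24 read lower in CDKO (-3.55 to -0.64, median -1.69), and 4 passed, against 6.58% of all. In CDKO cells at 5 µM 0 of 24 passed in limma (median -0.90), against 0.145% of all. The part of what sets these transcripts apart in the member values was not tested.

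**Figure D3:**
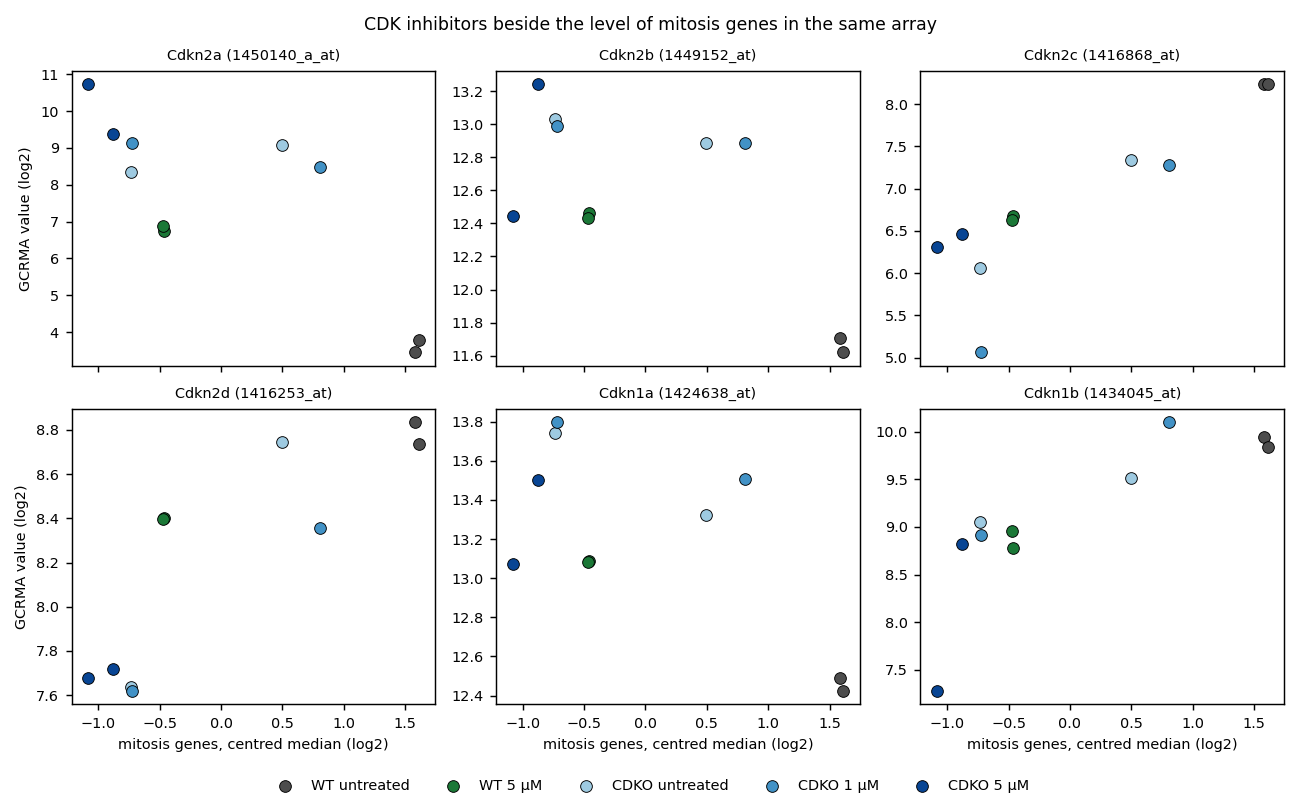
Each panel plots the log2 GCRMA value of 1 member against the centred median (log2) of the mitosis genes in the same array, with 1 point per array coloured by group and a vertical scale of its own. Cdkn2c and Cdkn1b are highest in the 4 arrays on the right, Cdkn2b and Cdkn1a are lowest in the 2 untreated WT arrays, and Cdkn2a parts the CDKO from the WT arrays at either end.

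The genes that act with the inhibitors were taken as lists by role, each gene by its probe set with the highest mean. Of 9 cyclin-dependent kinases and G1 cyclins, Ccna2, the cyclin of S phase and G2, fell with OHT in WT cells (-1.92 ± 0.34, adjusted p = 0.0199) and read lower in CDKO than in WT without OHT (-1.54 ± 0.34, adjusted p = 0.0410). It read 9.09 and 8.19 in untreated CDKO and 10.1 and 10.3 in untreated WT. The other 8, among them Cdk4 and Cdk6, the kinases that INK4 proteins bind, passed in neither comparison. Of all probe sets 9.23% and 6.58% passed in these comparisons. Of 6 pocket protein and E2F genes 5 were tested and 0 passed in either comparison in limma. An unadjusted p under 0.05 was found for 2 and 0 of them, against 30.6% and 25% of all probe sets.

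Of the ARF and p53 axis 8 of 9 listed genes were measured by a probe set of a single gene. Trp53inp1, a p53 target, was higher in CDKO than in WT cells without OHT (1.25 ± 0.28, adjusted p = 0.0420), with 12.1 and 12.1 against 10.9 and 10.7. Trp53inp1 alone of the 8 passed there, against 6.58% of all probe sets. The median of the 8 was 0.75 in that comparison, against -0.047 over all genes. An unadjusted p under 0.05 in limma was found for 4 of them, all higher in CDKO, against 25% of all probe sets. Mdm2, the ligase that ARF holds back, did not pass. It read 10.4 and 12.4 in untreated CDKO and 12.4 and 9.39 at 1 µM, so its replicates were further apart than its group means. With OHT in WT cells 0 of 8 passed in limma, against 9.23% of all probe sets. There 2 of 8 had an unadjusted p under 0.05, against 30.6% of all.

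Of 10 tested Polycomb genes and other regulators of the Ink4/Arf locus, 9 were above background on both sides of the comparison of OHT in WT cells. Of these 9 genes 3 passed, all lower, against 9.23% of all probe sets. The median of the 9 was -1.04, against -0.093 over all genes tested. All 9 read lower (-1.92 to -0.32). Ezh2, the histone methyltransferase of Polycomb complex PRC2, fell by 1.92 on the log2 scale (SE 0.36, adjusted p = 0.0230). Tbx3, a repressor of the locus, changed by -1.04 ± 0.24 (adjusted p = 0.0423), and Dmtf1, an activator of ARF, by -1.08 ± 0.20 (adjusted p = 0.0245). Ezh2 was also lower in CDKO than in WT cells without OHT (-1.60 ± 0.36, adjusted p = 0.0422), as 1 of 9, against 6.58% of all probe sets. The tenth gene, Tbx2, was tested because of its untreated WT level alone, with 4.27 and 5.04 there and 2.29 to 2.92, at background, in the other 8 arrays. Ezh2 read 10.0 and 9.93 in untreated WT and 7.75 to 9.19 in the other 8 arrays, with the highest of these in CDKO 1 µM replicate 2. Bmi1, the PRC1 subunit known for repressing the locus, read 10.1 to 10.9 in all arrays and passed in neither comparison.

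Of 6 genes of p27 turnover and transcription, Skp2, the ubiquitin ligase subunit that marks p27 for degradation, fell with OHT in WT cells (-1.95 ± 0.30, adjusted p = 0.0145) and read lower in CDKO than in WT without OHT (-1.81 ± 0.30, adjusted p = 0.0170). It read 10.7 and 10.9 in untreated WT and 8.59 to 9.40 in the other 8 arrays. With OHT in WT cells all 6 genes read lower. Of these, 4 had an unadjusted p under 0.05 in limma, against 30.6% of all probe sets. Skp2 alone of the 6 passed there, against 9.23% of all, and between the untreated lines, against 6.58%. In CDKO cells at either dose, and between the lines at 5 µM, 0 genes of any of these lists passed in limma. Of all probe sets 0.145% passed in CDKO cells at 5 µM, 0% at 1 µM, and 1.8% between the lines at 5 µM. At 5 µM against untreated CDKO, Ccna2 had an unadjusted p under 0.05, with -0.89 ± 0.34 (adjusted p = 0.483).

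**Figure D4:**
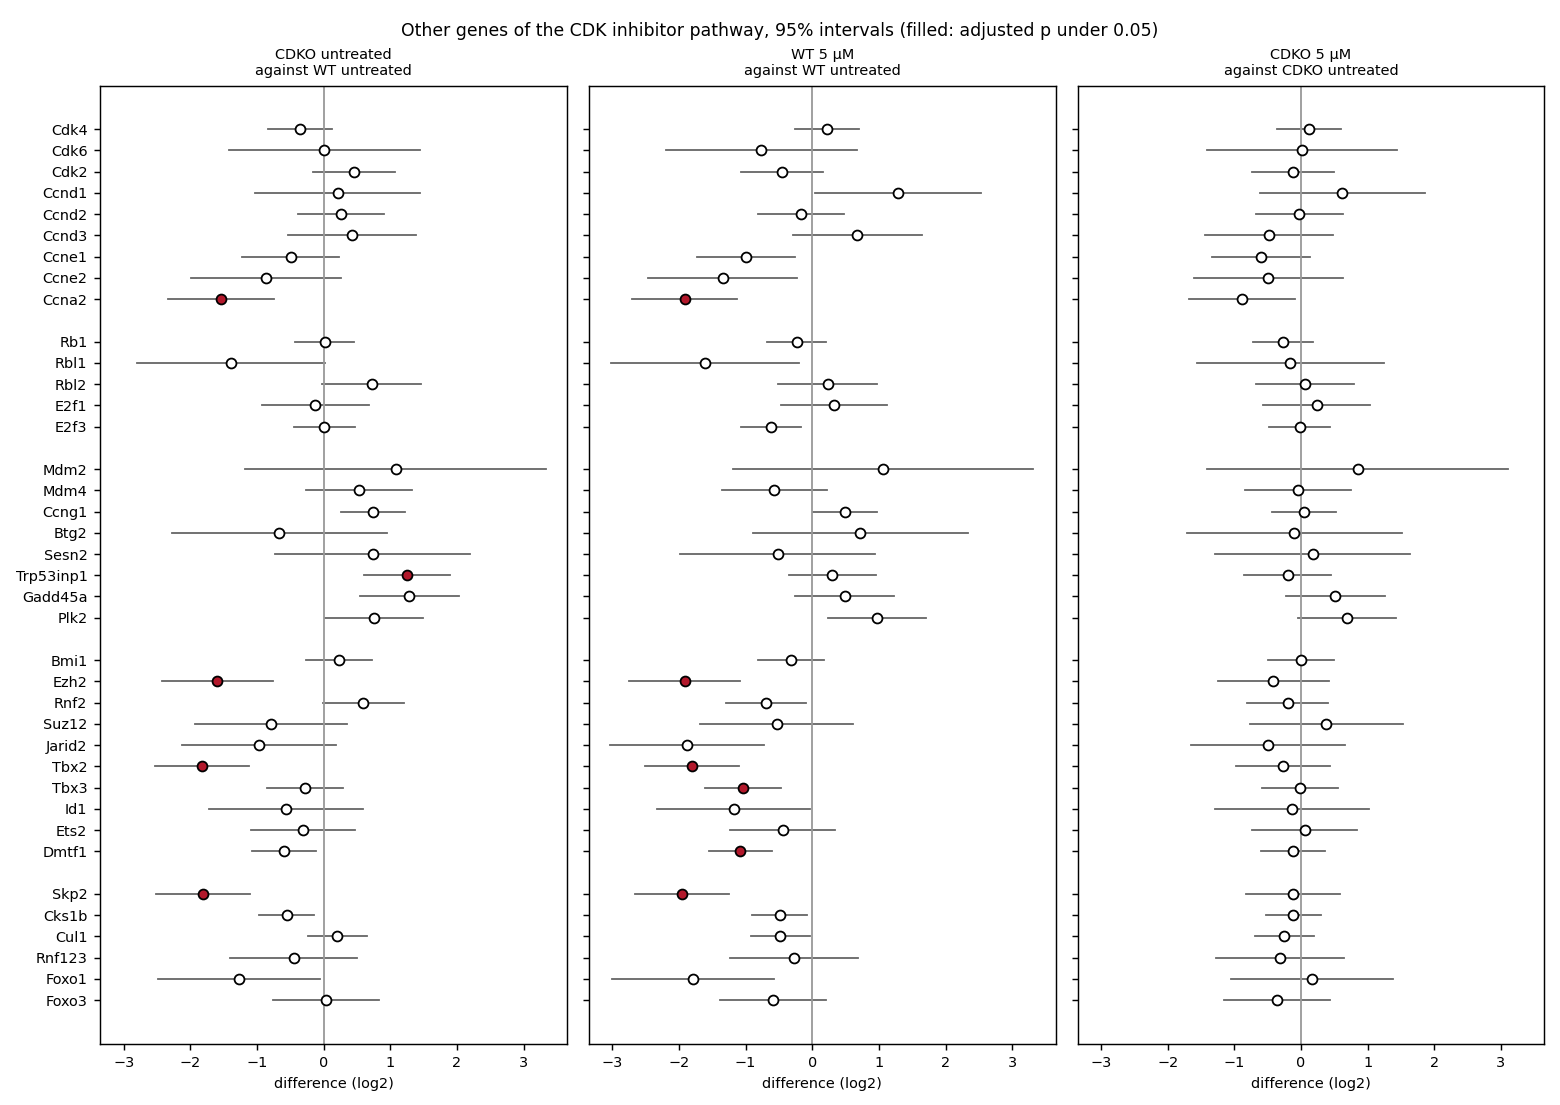
Points are fitted log2 differences of the tested pathway genes in 3 comparisons, ordered by role from kinases and cyclins at the top to p27 turnover at the bottom, with 95% intervals as lines and filled points for an adjusted p under 0.05. Ccna2, Ezh2 and Skp2 are filled on the negative side in both comparisons with untreated WT, as is Tbx2, which is at background outside untreated WT, and no point is filled for CDKO at 5 µM.

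The remaining inhibitors and the neighbours of the locus passed no comparison. Cdkn1c, which encodes p57 of the CIP/KIP family, read 7.69 and 10.1 in untreated CDKO, 8.84 and 8.80 in untreated WT, with all treated arrays of both lines inside the range of untreated CDKO. Cdkn3, a phosphatase of Cdk2, read 3.85 to 6.97 in the CDKO arrays and 6.13 to 7.25 in the WT arrays. On the chromosome Cdkn2a and Cdkn2b lie between Mtap, an enzyme of the methionine salvage pathway, and Dmrta1. Mtap read 11.0 to 12.5 in the CDKO arrays and 10.9 to 11.8 in the WT arrays, with a difference of 0.96 between the untreated lines that did not pass. Dmrta1 was under 4 in every array.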

How the data were processed

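Gene expression was measured with Affymetrix arrays on total RNA extracted with Trizol. The deposited values are log2 signals, 1 per probe set and array, made by the authors with GCRMA, of no stated version, per the submitters' processing notes. GCRMA subtracts background by probe sequence and puts all arrays on 1 distribution, so a shift shared by most genes is not visible. The scale was read from the values. No chip definition was named in the labels. Samples were grouped by title.

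Of 45101 probe sets 64 controls were left out, and 20681 whose highest group mean reached 4 were tested. The test was limma 3.58.1 in R 4.3.3, with lmFit and eBayes on a mean for each of the 5 groups (residual df 5). Calls are at a Benjamini-Hochberg adjusted p under 0.05 over all tested probe sets, and no p was adjusted over the members alone. Fitted differences of log2 values carry their SE, and group means their SD. Genes came from the platform annotation (34945 probe sets with 1 symbol, 932 with several, 9160 with none), and 0 symbols changed against RefSeq. A gene's main probe set was that with the highest mean. Fitted differences are given for main probe sets of the members, and for another that passed the filter and bears on the result. Pathway genes are named, up to 4 per list, by the largest difference among those called, and others named without a call were chosen for their role after their values were seen. The members, lists, tests and alternatives were chosen with earlier results of these data known. The fit was checked on simulated data. The number of arrays limits the precision. Promoter windows and motif counts were made in Python 3.11.15 from RefSeq sequences of GRCm38.p6.

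Samples of the same replicate number were not paired. The differences between replicates correlated at -0.453 between untreated and 1 µM CDKO cells and at 0.431 between untreated and 5 µM cells. Between 1 µM and 5 µM cells they correlated at 0.027. Whether arrays of different replicate numbers share a batch was not tested. Tried as alternatives were leaving out each array, the compared groups alone, blocks for the replicate number and for the spike-in class, array weights, main probe sets alone, quantile normalization, median centring, a robust prior with a trend, and a filter at 6 or none. The comparison with the pooled controls was also run without untreated WT cells, an alternative added after seeing the data. Counts of the regulator list over genes above background in both groups were also added after seeing the data.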

Additional observations from a re-analysis of the deposited data

How the results depend on the processing

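Over 32 fitted member differences and their alternatives, 580 of 639 kept their direction and their side of the threshold, 31 were no longer past it, 20 passed it and 8 changed sign. The sign changes were for Cdkn2c (0.33, lowest -0.96 with each array left out) and Cdkn2d (0.063, lowest -1.05) in CDKO at 5 µM against untreated without CDKO untreated replicate 1, for Cdkn2b there without CDKO 5 µM replicate 1 (0.28, lowest -0.51), and for Cdkn2a at 1 µM against untreated without CDKO untreated replicate 2 (-0.27) or CDKO 1 µM replicate 1 (-0.23, highest 0.46). Between the lines at 5 µM, Cdkn2c (0.016) and Cdkn1a (-0.0092) changed sign with a block for the spike-in class, and Cdkn1a without CDKO 5 µM replicate 2 (-0.012, highest 0.42). None of these was past the threshold. The member count called between the untreated lines went from 3 to 1 with no filter, with the compared groups alone and with the replicate block, and ran from 1 to 4 with each array left out. That with OHT in WT cells went from 1 to 6 with array weights, 7 with the compared groups alone and 2 with the spike-in block, and ran from 0 to 2 with each array left out. Between the lines at 5 µM it went from 1 to 0 with no filter and with the compared groups alone, and ran from 0 to 1. For treated CDKO against the pooled controls it went from 1 to 0 without untreated WT cells, and ran from 1 to 2. The fits with the compared groups alone rest on fewer arrays and on the spread of those arrays alone, and those with no filter on more tests. With the WT groups alone the SE of the Cdkn2a difference with OHT was 0.15, against 0.48 in the main fit. The array weights were 3.11 to 5.62 for the WT arrays and 0.31 to 0.43 for the CDKO arrays. For the other shifts the cause was not tested. In the other 4 comparisons the member count stayed at 0 under every alternative. The replicate block moved the count of all probe sets called in WT cells from 1909 to 1190 and that between the untreated lines from 1360 to 970. Over all probe sets and alternatives these counts ran from 65 to 12458 and from 255 to 3217.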

Other observations

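For each member the 3 genes with the most similar pattern over the 10 arrays were looked up among 10340 genes by Pearson's r, as a description of arrays that share groups and spread and with no test. For Cdkn2a they were Prkag2 (r = 0.978), Nop10 (0.978) and Ypel5 (0.976), and for Cdkn2b Vopp1 (0.986), Qrich1 (0.967) and Lman2 (0.965). For Cdkn2c they were Bnc2 (0.992), Zfp281 (0.981) and Zfp930 (0.978), and for Cdkn2d Bhlhb9 (0.974), Prelp (0.974) and Ndufb5 (0.971). For Cdkn1a they were Fhl2 (0.968), Ptk7 (0.960) and Gzmd (0.958), and for Cdkn1b Mxd1 (0.994), Eya4 (0.980) and Pofut2 (0.975). Prkag2, a subunit of AMP-activated kinase, ran from 7.20 to 9.16 over the arrays, a narrower range than the 3.45 to 10.7 of Cdkn2a. Bnc2, a zinc finger gene expressed in fibroblasts, ran from 7.25 to 10.0, and Mxd1, a MAX partner, from 5.20 to 6.79.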
